A study of Arabidopsis thaliana with 4 samples.

Results

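MYB, homeobox and B-box genes were examined for their response to a short auxin treatment in *Arabidopsis thaliana* seedlings. The members are array probe sets that stand for a single gene whose symbol is MYB, HB, WOX, KNAT, HDG or BBX followed by a number. There were 16 of them among the 22746 probe sets tested, each the only probe set that could be named for its gene. Further probe sets of these genes could lie among the 8245 left unnamed. They comprised 9 MYB, 5 HB and 2 BBX genes, out of 199 protein-coding genes in RefSeq with such symbols. No WOX, KNAT or HDG gene could be named on the array here, and these families were not analysed here. The seedlings were of the Columbia wild type (Col-0), raised in the light for 5 days and harvested whole. The mock group spent 2 h in water (2 arrays) and the IAA group spent the same time in water containing 10 µM indole-3-acetic acid, the main natural auxin (2 arrays). No mutation or transgene was involved. Whole seedlings mix all tissues, so fewer cells of a type and less RNA per cell cannot be told apart.

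MYB proteins bind DNA through repeats of the MYB domain, and the plant R2R3 class, to which the MYB members belong, controls phenylpropanoid and glucosinolate metabolism, cell fate and stress responses. Homeobox genes encode homeodomain proteins. In plants the homeodomain is often joined to a leucine zipper (HD-ZIP) or to a zinc finger (ZF-HD). B-box proteins carry zinc-binding B-box domains and many act in light signaling. Auxin acts through the degradation of Aux/IAA repressors, which frees Auxin Response Factors to act on their target genes.

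How the genes came to be named bears on every count. None of the 16 was named by the array's annotation table. The identity of 14 came from the study's lists of brassinosteroid (BR)-responsive transcripts, which were drawn from other arrays. *MYB48* and *BBX14* were named through the lists of auxin-responsive transcripts, which were chosen on these same 4 arrays, so their changes are given as a description. Their limma calls and intervals are shown beside the others but are not read as test results. The 14 are therefore set beside the 335 probe sets named through the BR lists as well as the whole array. Those lists pool transcripts increased and decreased by BR, and the shares were not split by BR direction. By the rule in the study's methods (limma adjusted p below 0.10 and log odds B above 0), 1.48% of all probe sets were increased and 0.374% decreased, against 18.5% and 0.896% of those named through the BR lists. The limit on B did most of the filtering, and no called probe set had an adjusted p above 0.0343.

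The label homeobox did not hold for 1 member. *HB2* (AT3G10520) is listed in RefSeq as hemoglobin 2, a class 2 non-symbiotic hemoglobin, and carries an HB symbol for that reason. It was kept as the rule requires and is described apart from the 4 homeobox genes. Of these, *HB5* (AT5G65310) and *HB52* (AT5G53980) encode HD-ZIP proteins, and *HB28* (AT3G50890) and *HB33* (AT1G75240) encode ZF-HD proteins, also known as ZHD7 and ZHD5. The members lie on chromosome 1 (5 genes), chromosome 3 (4 genes), chromosome 4 (2 genes) and chromosome 5 (5 genes).

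Of the 14 members named through the BR lists, 1 was increased (*HB33*), 0 were decreased and 13 were not called by limma. At an unadjusted limma p below 0.05, 7 of them were higher and 2 lower, where 42.4% and 11.3% of the probe sets named through the BR lists, and 10.1% and 10.6% of all probe sets, met that limit. The median log2 change of the 14 was 0.31, a midpoint between *HB2* and the dim *HB28*, against 0.18 for all probe sets named through the BR lists and -0.02 for the whole array. Mock and IAA arrays did not overlap in 7 members that were higher and 5 that were lower after IAA. Such separation was seen for 52.2% (higher) and 22.1% (lower) of the probe sets named through the BR lists and for 24.5% and 29% of all probe sets.

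**Figure D1:**
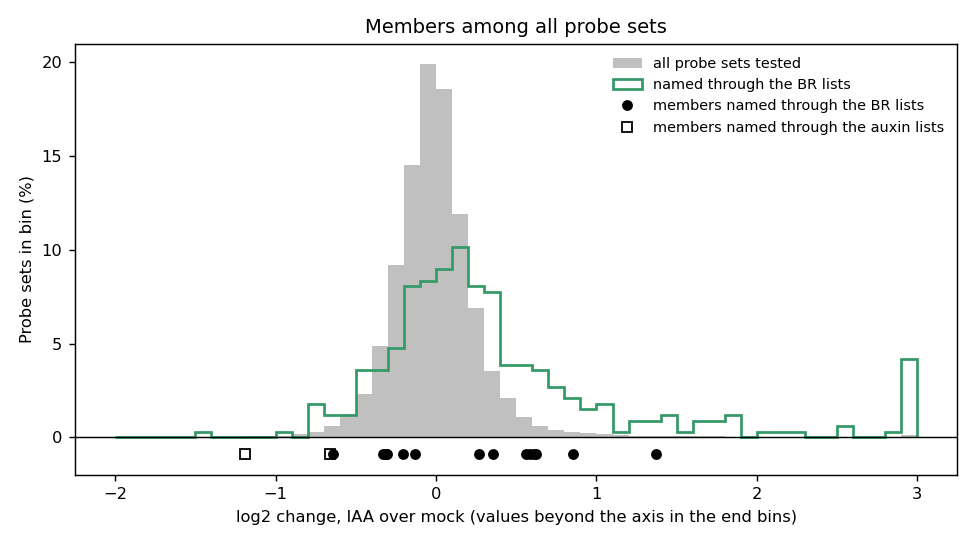
Distribution of the log2 change (IAA over mock, x axis) as the percentage of probe sets per bin (y axis) for all 22746 probe sets (grey) and the 335 named through the BR lists (green line). Points below the line mark the 16 members, which run from -1.19 (*BBX14*, open square) to 1.37 (*HB33*).

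Values are RMA expression values on a linear scale, and a level was regarded as near background at or below 37.6, the highest reading of any control probe set for *Bacillus* genes. That limit rested on 1 control probe set, since the others reached at most 19.2. Both group means were near background in 4 members (*MYB34*, *MYB40*, *MYB66* and *HB28*), as in 37.4% of all probe sets, and no direction is read from these, although they enter the counts above. *HB28* is one of the 7 members higher by either count, *MYB34* is one of the 2 that were lower by p, and *MYB34*, *MYB40* and *MYB66* are among the 5 that were lower with separate groups.

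**Figure D2:**
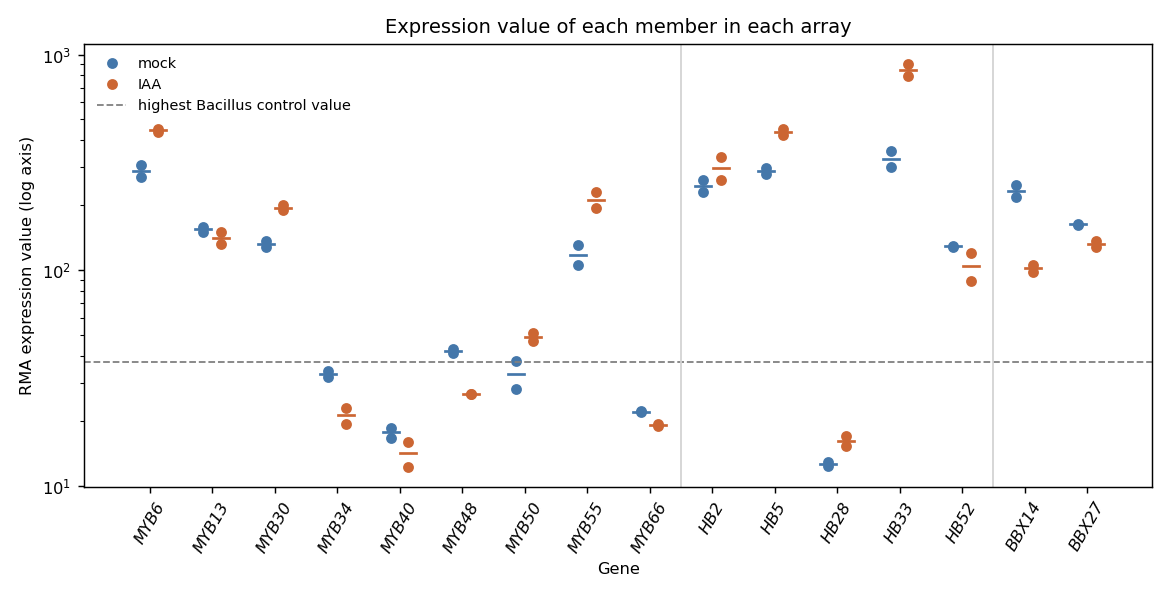
Expression value (RMA, log axis) of each of the 16 members in the 2 mock arrays (blue) and the 2 IAA arrays (orange), with short lines at the group means and a dashed line at 37.6. *HB33* stands higher and *BBX14* lower in both IAA arrays, and 4 genes lie below the dashed line in all arrays.

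The homeobox genes held the one increase. *HB33*, a ZF-HD gene known to be repressed by the Auxin Response Factor ARF2 and to act in abscisic acid response, read 356 and 299.9 in the mock arrays and 793 and 903 in the IAA arrays. The groups were far apart, with the lowest IAA value 2.23 times the highest mock value. The mean rose from 328 ± 39.8 to 848 ± 77.6 (SD, n = 2 in each group), a 2.59-fold increase (log2 change 1.37 ± 0.13 SE, 95% interval 1.06 to 1.68, limma adjusted p = 0.0077). The call was kept in 12 of 13 other settings, those that left out each of the 4 arrays among them.

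*HB5*, an HD-ZIP gene of class I that acts in the abscisic acid response of seedlings, read 278 and 297 in mock and 454 and 424 after IAA. The groups were well apart, yet the change did not pass. The log2 change was 0.61 ± 0.09 (SE, 95% interval 0.37 to 0.84) with a limma adjusted p of 0.0397 and B of -0.29. *HB5* was called in 4 of 13 other settings, among them those with 16 or with 64 added to each value before the logarithm. *HB52*, another class I HD-ZIP gene, known for its part in root elongation, read 128 and 129 in mock and 89.1 and 120.5 after IAA. One IAA array was close to the mock arrays and the other was well below them. Its log2 change was -0.31 (95% interval -0.70 to 0.07, limma adjusted p = 0.318). *HB28*, the second ZF-HD gene, read 12.8 and 12.3 in mock and 16.9 and 15.3 after IAA, all near background, so its response cannot be set beside that of *HB33*. The hemoglobin gene *HB2* read 231 and 262 in mock and 335 and 262 after IAA, so that the groups met at one value. Its log2 change was 0.27 (95% interval -0.09 to 0.63, limma adjusted p = 0.356).

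Among the 9 MYB genes, 0 were increased by limma and *MYB48*, chosen on these arrays, was called decreased. Of the 8 named through the BR lists 0 were called, while at an unadjusted limma p below 0.05 4 were higher and 1, near background in both groups, was lower. That limit was met by 42.4% (higher) and 11.3% (lower) of all probe sets named through the BR lists, so the count is not read as a trait of MYB genes. The 4 that read higher after IAA were *MYB6*, *MYB30*, *MYB50* and *MYB55*, and none of them had an IAA value below a mock value. Such separation was seen for 52.2% of the probe sets named through the BR lists.

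*MYB55* (AT4G01680), a close relative of *MYB61*, had the largest change of the 9 as measured. It read 131 and 105 in mock and 194 and 231 after IAA. The IAA arrays were clearly the higher, although the arrays of each group also differed among themselves. The log2 change was 0.85 ± 0.15 (SE, 95% interval 0.49 to 1.22, limma adjusted p = 0.0512, B -0.89), or 1.80-fold, and was not called. *MYB50* (AT1G57560) belongs to the same group of relatives. It read 37.9 and 28.2 in mock and 46.8 and 51.3 after IAA. The mock mean of 33.0 was near background, so its fold is given as at least 1.302, the IAA level against 37.6, and the gene was not called (limma adjusted p = 0.129).

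*MYB6* (AT4G09460) read 269.9 and 309 in mock and 438 and 452 after IAA. Each IAA value was at least 1.42 times each mock value. The log2 change was 0.62 ± 0.10 (SE, 95% interval 0.37 to 0.88, limma adjusted p = 0.0467, B -0.67). *MYB30* (AT3G28910), a promoter of hypersensitive cell death that also works with the BR transcription factor BES1, read 128 and 136 in mock and 190.0 and 199.6 after IAA. Its replicates were close to each other in both groups. The log2 change was 0.56 ± 0.09 (SE, 95% interval 0.33 to 0.79, limma adjusted p = 0.044, B -0.55). Neither gene was called, and *MYB6* passed in 2 and *MYB30* in 3 of 13 other settings. The value stayed above 0 wherever an added constant, median centring or a left-out array could alter it. With no rule on B and an adjusted p below 0.10, *MYB6*, *MYB30*, *MYB55*, *HB5* and *HB33* would have passed upward among the 14. *MYB34* would have passed too, but was near background in both groups. This looser rule took 5 higher and 1 lower of the 14, and 27.8% and 3.58% of the probe sets named through the BR lists and 3.87% and 2.26% of the array.

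*MYB13* (AT1G06180), a relative of *MYB14* and *MYB15*, was the member closest to 0. It read 149.8 and 159 in mock and 132 and 151 after IAA, with overlapping groups and a log2 change of -0.13 (95% interval -0.40 to 0.13, limma adjusted p = 0.522).

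The remaining MYB genes were dim. *MYB34* (AT5G60890), an activator of tryptophan and indolic glucosinolate synthesis also called ATR1, read 31.9 and 34.0 in mock and 19.4 and 23.0 after IAA. All 4 values lie below 37.6. *MYB40* (AT5G14340) read 16.7 and 18.6 in mock and 12.2 and 16.01 after IAA. *MYB66* (AT5G14750), known as WEREWOLF, which specifies the non-hair cells of the root epidermis, read 21.9 and 22.2 in mock and 18.9 and 19.3 after IAA. None of the 3 was called, with limma adjusted p of 0.057, 0.283 and 0.251.

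*MYB48* (AT3G46130) was one of the members chosen on these arrays, and its fall is a description. It read 43.2 and 41.2 in mock and 26.7 and 26.6 after IAA, so the mock arrays were just above the background limit and the IAA arrays below it. The mock level was at least 1.12 times higher (log2 change as measured -0.66). The call was lost with 64 added before the logarithm, with an intensity trend in eBayes and with the replicate block. The other call rules could not lose it. It did not hold with an array left out, where the log2 change was between -0.70 and -0.63.

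Both B-box genes read lower after IAA. *BBX14* (AT1G68520), which encodes a protein with a B-box and a CCT domain, read 247 and 219 in mock and 98.1 and 106 after IAA. Each mock value was at least 2.07 times each IAA value. The mean went from 233 ± 20.2 to 102 ± 5.40 (SD, n = 2), a log2 change of -1.19 and a 2.28-fold lower level. As this gene was named through the auxin lists, its call follows from how it was chosen. *BBX27* (AT1G68190), whose protein has a B-box and no CCT domain, was named independently of these arrays and was not called. It read 164 and 162 in mock and 128 and 136 after IAA. The groups did not overlap, and the log2 change was -0.30 (95% interval -0.52 to -0.08, limma adjusted p = 0.149). The intervals given here are for single genes and are not adjusted for the number of probe sets.

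**Figure D3:**
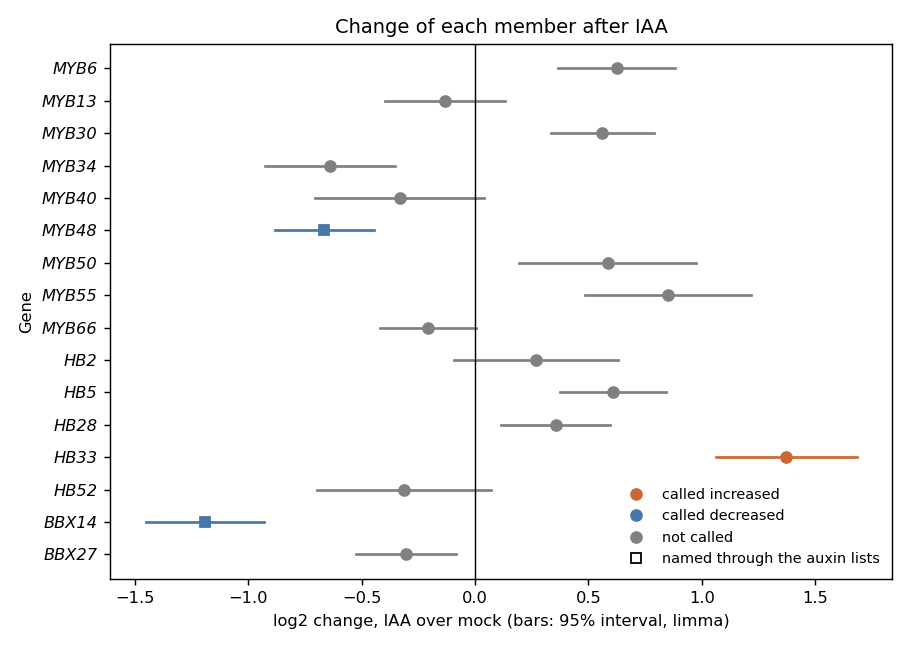
Log2 change (IAA over mock, x axis) of each of the 16 members with its 95% interval from limma. *HB33* (1.37, orange) was called increased, *MYB48* and *BBX14* (blue squares, named through the auxin lists) were called decreased, and 13 genes (grey) were not called.

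**Figure D4:**
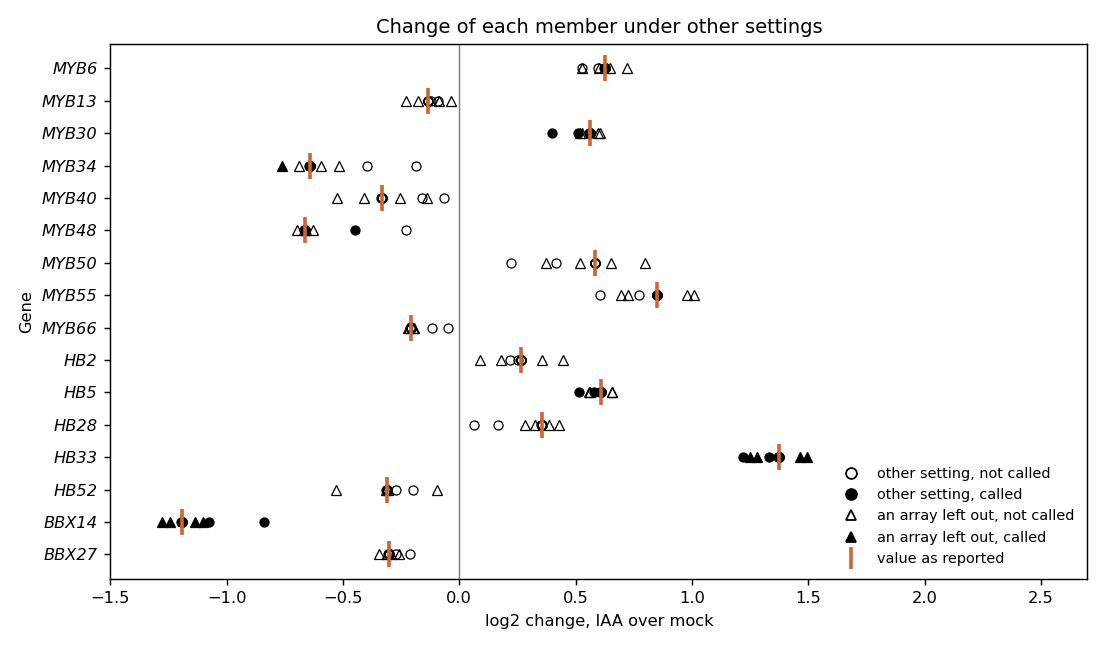
Log2 change (x axis) of each member as reported (orange bar), under other settings (circles) and with an array left out (triangles), filled where the gene was called. *HB33* was not called with the replicate block. No member changed sign, which only added constants, median centring and left-out arrays could alter.

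Genes of related families, and genes that MYB and B-box factors work with or act on, were then compared as lists. Of 150 such genes 23 had a named probe set that stands for a single gene, and only such genes are called measured here. The array may hold others, since 8245 probe sets were left unnamed. By limma 0 were increased and 0 decreased, while at an unadjusted limma p below 0.05 0 were higher and 6 lower, where 10.1% and 10.6% of all probe sets met that limit. Of these 6, *MYC4* and *BAN* were near background in both groups, and *ATH1*, *TT5* and *SOT18* were named through the BR lists. Of the probe sets named through the BR lists, 42.4% were higher and 11.3% lower at that limit. The median log2 change of the 23 was -0.06, against -0.02 on the whole array, and both group means were near background in 7.

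Of the partners of MYB factors, *MYC3*, a bHLH factor that acts with MYB proteins in glucosinolate synthesis, read 104 and 117 in mock and 77.5 and 87.1 after IAA. Both IAA arrays were lower, and the log2 change of -0.43 did not pass (limma adjusted p = 0.119). *MYC4* was near background in both groups. The indolic glucosinolate genes on which *MYB34* acts were represented by 2 of 11 listed genes. *CYP79B2*, which converts tryptophan to an aldoxime used for glucosinolates and auxin, read 41.8 and 63.7 in mock and 50.6 and 89.0 after IAA. These groups overlapped, with 0.38 ± 0.31 as the log2 change (SE; adjusted p by limma 0.536), and *UGT74B1* was at 0.04. Of 5 aliphatic glucosinolate genes 3 were near background in both groups, and the sulfotransferase gene *SOT18* was farthest from 0 at -0.48 (limma adjusted p = 0.12). Among the flavonoid genes, a pathway with well-known R2R3 MYB regulators, 5 of 11 were measured. The chalcone isomerase gene *TT5* had a log2 change of -0.46 (limma adjusted p = 0.117) and the glucosyltransferase gene *UGT78D2* one of 0.00.

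Of the related homeobox genes, the BELL genes *ATH1* (-0.35, IAA mean near background) and *BLH6* (-0.12) and the class III HD-ZIP gene *PHV* (-0.11) were measured and were not called. The MYB-related genes were *TRY* (log2 change 0.06), *MYBL2* (-0.06) and AT5G47390 (0.16), and none was called. *MYBL2*, a repressor of flavonoid genes, read 3882 and 4069.7 in mock and 3737 and 3867 after IAA, so the groups were barely apart (limma adjusted p = 0.724). *MYR2*, the only measured gene besides *MYB66* in the list of MYB genes known by other names, was near background. *HYH*, a bZIP factor of light signaling that is a relative of the B-box partner HY5, was the only measured gene of its list, at 0.16. The secondary wall gene *GUT2* was at -0.08, and 0 of 14 genes of the CONSTANS-like list had a named probe set.

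Other signals moved in the same arrays. All 10 measured auxin response genes rose, the enzyme gene *GH3.3* and the repressor gene *IAA29* among them, though 4 of these were named through the auxin lists. Of 7 measured genes of touch and handling, 5 were increased, 2 of them named through the auxin lists and 3 through the BR lists. Increases made up 1.48% of all probe sets and 18.5% of those named through the BR lists. The summed value of the 7 genes was 3288 to 3604 in mock and 5801 to 6432 after IAA. Most of that sum was *TCH4*, with group means of 2494 and 4173. *WRKY53* was near background in both groups, and no marker was at 0. Of 15 listed root markers 6 were measured and 3 decreased, *CASP5* (named through the BR lists) and *TIP2;3* and *SHV2* (named through the auxin lists). Decreases made up 0.374% of all probe sets and 0.896% of those named through the BR lists. The 6 summed to 3490 to 4101 in mock and 2900 to 3334 after IAA. Most of that sum was *PYK10*, with group means of 2675 and 2516. Of 13 listed shoot markers 2 were measured, *PRK* and *RCA*. They were not called and summed to 15472 to 15680 in mock and 14615 to 14967 after IAA. The part of handling and of tissue in the changes of *HB33*, *MYB48* and *BBX14* was not tested.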

How the data were processed

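Probes prepared from total RNA of whole seedlings were hybridized to 4 Affymetrix arrays (2 mock, 2 IAA). The deposited intensity values, one per probe set and not in log units, were made by the authors with rma of the Bioconductor affy package (background correction, quantile normalization between arrays, probe-set summary). The package version and the set of arrays normalized together are not given in the sources used here. The medians of the arrays lay between 62.2 and 63.5, and quantile normalization hides a change shared by most transcripts. The study describes its replicates as independent biological ones, and their number limits the precision.

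The log2 of each value was used, with nothing added. A linear model of treatment alone was fitted to all 22746 probe sets other than controls with limma (version 3.58.1, under R 4.3.3; lmFit, then eBayes), and p was adjusted by Benjamini-Hochberg over all of them. A call needed an adjusted p below 0.10 and B above 0, as in the study's methods. The counts of 0.05 refer to unadjusted p. Intervals are 95% intervals of the moderated fit. A group was near background at or below 37.6, and a fold against such a group is a bound, the log2 mean of the brighter group against 37.6.

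Probe sets took their gene from the annotation table of the platform, with symbols brought up to date from RefSeq (TAIR10.1), and otherwise through the loci in the study's lists, whose values were not used. This named 13513, 335 (BR lists) and 150 (auxin lists) probe sets, and 8245 were left unnamed. No genome was used, so no sequence or position is given. The list entries whose symbol RefSeq gives to another family were removed. All 16 members are named, which goes beyond the written rule (called members and the largest changes of each family). Of other lists, called members or those farthest from 0 are named, and the rest were chosen after their values were seen. The members and lists were chosen with earlier results of these data known. The pipeline was tested on simulated data. Alternatives were other pseudocounts, median centring, a filter on dim probe sets, other variance models and call rules, a replicate block, and each array left out.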

Additional observations from a re-analysis of the deposited data

How the results depend on the processing

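No member changed the sign of its log2 change in any setting. The filter on dim probe sets, the variance models, the call rules and the replicate block leave the log2 change itself as it was. Only added constants, median centring and left-out arrays could alter a sign. Of the 203 values of single members in other settings, 182 kept their direction and their side of the call rule, 12 passed newly and 9 no longer passed, 7 of the latter for *MYB48*. Increases among the members numbered 1, and 5 with no rule on B. They numbered 3 with 16 or 64 added before the logarithm and with an intensity trend in eBayes. Over all probe sets those settings gave 345, 328 and 380 increases in that order, against 337. Decreases numbered 2 (*MYB48* and *BBX14*, chosen on these arrays), and 1 with 64 added, without dim probe sets and with the intensity trend. With an array left out, decreases among the members ranged from 1 to 2, and over all probe sets decreases ranged from 20 to 162 (21 and 20 when mock replicates 1 and 2 were left out, 162 when IAA replicate 2 was) and increases from 158 to 397 (158 and 196 when mock replicates 1 and 2 were left out), against 85 and 337. With no rule on B, all probe sets gave 880 increases and 513 decreases. The replicate numbers are not known to pair the arrays, and the deviations of same-numbered arrays correlated at -0.19. With the replicate block, 145 increases and 10 decreases were called over all probe sets, and 0 and 0 among the members. The limma adjusted p of *HB33* was 0.127 in that fit. Of the 16 members 7 were higher and 5 lower at an unadjusted limma p below 0.05, against 8.12% and 7.07% of all probe sets. Near background in both groups were *HB28* of the 7 and *MYB34* and *MYB40* of the 5, which also hold *MYB48* and *BBX14*. The share among probe sets named through the BR lists was not computed for that fit, so these counts are not read as a result. A block with crossed numbers, added after seeing the data, gave 299 and 86 over all probe sets and 2 and 1 among the members. The median over the 9 MYB genes was the value of *MYB13* alone (-0.13), and it became 0.58 with dim probe sets left out. The median over the 5 HB genes was that of *HB28*, near background in both groups. Neither is read as a family value. No setting with members named by the platform annotation alone or with another probe set per gene could be run. There are 0 such members, and each gene has 1 probe set that could be named. The cause of other differences was not tested.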
